A study of Mus musculus with 9 samples.

Results

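The tumor necrosis factor (TNF) superfamily is described here through 10 genes in 3 mononuclear phagocyte populations of mouse bone marrow (BM). The 10 genes are the ligands *Tnf*, *Ltb*, *Tnfsf10*, *Tnfsf12*, *Tnfsf13*, and *Tnfsf13b* and the receptors *Tnfrsf1a*, *Tnfrsf1b*, *Tnfrsf11a*, and *Fas*. They were taken from a list by name, and the rule uses no measured value, though the list was drawn up with earlier results of these data known. Of the 10, 8 have a probe set of their own among the 19937 genes that the array measures separately, and *Tnfsf12* and *Tnfsf13* share 1 probe set.

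The cells came from the BM of C57Bl/6 mice, 8 weeks old and kept in specific-pathogen-free housing, at steady state, with no treatment or engineered allele in any group. All 3 populations were sorted as Ly6Chi CD115+ cells, negative for lineage markers and MHCII. R1 is Flt3- CD11c-, R2 is Flt3+ CD11c-, and R3 is Flt3+ CD11c+. In the study's terms R1 and R2 are monocytes and R3 is a precursor of dendritic cells (pre-DCs). Each population was measured on 3 arrays, and the labels give 1 array of each population for each of 3 dates. Nothing in the labels says whether different animals stand behind the dates, so the spread between arrays may be partly technical. Values are the log2 of the deposited intensity of a probe set, and levels are compared between populations only within a probe set. Because a population is measured in bulk, fewer cells that express a gene and less RNA of that gene per cell cannot be told apart.

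TNF superfamily ligands are made mostly as trimeric membrane proteins, and several are cut from the surface by proteases. Most of their receptors either carry a death domain, as TNFR1 and FAS do, or bind TRAF adaptors directly, as TNFR2 and RANK do. Such receptors signal to NF-kB, to MAP kinases, or to cell death. Monocytes and macrophages are a main source of TNF, and RANK on cells of this lineage receives the signal for osteoclast formation.

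The sort genes were checked first. *Csf1r*, which encodes CD115, had a mean log2 intensity of 11.25 in R1, 10.98 in R2, and 10.74 in R3. *Flt3* stood at 7.23, 7.91, and 11.04 and *Itgax*, which encodes CD11c, at 5.21, 5.84, and 10.78 in the same order. The summed intensity of 6 monocyte marker genes was 27021 to 28106 in R1, 24105 to 26413 in R2, and 13142 to 16050 in R3. That of 8 dendritic cell markers was 1988 to 2624, 2977 to 3314, and 13436 to 15193, and that of 7 plasmacytoid markers was 1973 to 1992, 1748 to 1906, and 7187 to 9526. Of the 6 monocyte genes, *Lyz2*, *F13a1*, and *Itgam* were called lower in R3 in both comparisons, *Csf1r* was called lower against R1, *Ccr2* was not called, and *Cx3cr1* was called higher in R3 than in R2 (log2 fold change 0.63, adjusted p = 0.00993). The sum of 8 neutrophil and granule genes was 5519 to 8506 in R1 and 9380 to 13288 in R2. In R3 it was 4579, 675, and 1701 in replicates 1, 2, and 3. Sums of 6 T cell markers (259 to 301) and of 7 natural killer and innate lymphoid markers (173 to 202) covered all 9 arrays, with none of these genes called. Of 7 B cell markers, only *Blnk* was called, higher in R3. Of 5 erythroid markers, only *Tfrc*, the transferrin receptor, was called, higher in R3 than in R1 and R2 and also higher in R2 than in R1 (log2 fold change 0.98, adjusted p = 0.0236).

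Promoter sequence is shown for 3 receptors, because *Fas* and *Tnfrsf1b* gave the largest differences among the 8 genes and *Tnfrsf1a*, the other receptor for TNF, gave no call. Each line holds the 250 bases before an annotated start, read 5′ to 3′ on the strand of the gene (RefSeq, GRCm38.p6). For *Fas* that start lies past the first base of the gene as a whole (34290647), so the end of its window overlaps the gene. Capitals mark matches to GAGGAA, the core of the box bound by PU.1, and to TTCNNNGAA, the consensus of the sites bound by STAT factors.
Fas, chr19:34290409-34290658, plus strand: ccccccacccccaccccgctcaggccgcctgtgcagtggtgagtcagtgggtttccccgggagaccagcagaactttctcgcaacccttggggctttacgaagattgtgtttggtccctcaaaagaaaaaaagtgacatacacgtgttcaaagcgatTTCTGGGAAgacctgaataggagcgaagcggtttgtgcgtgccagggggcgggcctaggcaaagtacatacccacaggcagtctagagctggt
Tnfrsf1b, chr4:145246871-145247120, minus strand: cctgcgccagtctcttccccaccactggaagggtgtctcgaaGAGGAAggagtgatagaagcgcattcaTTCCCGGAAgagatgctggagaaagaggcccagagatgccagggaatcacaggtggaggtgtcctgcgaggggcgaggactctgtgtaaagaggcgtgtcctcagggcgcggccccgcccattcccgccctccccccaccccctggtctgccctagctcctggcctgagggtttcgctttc
Tnfrsf1a, chr6:125349473-125349722, plus strand: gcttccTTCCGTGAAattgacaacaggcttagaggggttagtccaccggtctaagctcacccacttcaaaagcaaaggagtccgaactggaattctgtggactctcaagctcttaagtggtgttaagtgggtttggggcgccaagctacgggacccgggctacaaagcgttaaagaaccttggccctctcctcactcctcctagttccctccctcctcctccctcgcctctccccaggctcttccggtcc
Both strands were searched, and the 2 motifs do not overlap in these windows. The STAT letters occur once in each of the 3 windows, with their last base 85 bases before the start in *Fas*, 173 in *Tnfrsf1b*, and 236 in *Tnfrsf1a*. Over 32851 mouse promoter windows of this length, 7.02% hold the STAT letters and 23.3% hold the PU.1 core. The PU.1 core is in *Tnfrsf1b*, and it also occurs in the windows of *Tnf* (112 bases before the start) and *Ltb* (96). The *Ltb* window further holds the STAT letters, at 164 bases, and an NF-kB consensus, at 78 bases, which 7.25% of windows hold. A promoter window was found for 9 of the 10 genes, *Tnfsf12* being the exception. These are matches of letters, and binding was not measured.

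The comparison of R3 with R2 asks how pre-DCs differ from the monocytes that were, like them, sorted as Flt3+. By RNA, *Flt3* itself was 8.75-fold higher in R3 than in R2 (adjusted p = 2.37e-05) and was not called in R2 against R1 (adjusted p = 0.281). Among the 8 genes, *Tnfrsf1b* and *Fas* were lower in R3 and none was higher. Over all genes, 9.55% were called in this comparison at an adjusted p under 0.05 (limma), 4.85% higher and 4.69% lower in R3. The median log2 fold change of the 8 genes was -0.31, against -0.01 over all genes. Against R1, 4 of the 8 were lower in R3 (*Tnf*, *Tnfsf13b*, *Tnfrsf1b*, and *Fas*) and none was higher. There 13.5% of all genes were called, 6.49% higher and 7.02% lower, and the medians were -0.38 and -0.02. Both comparisons use the same R3 arrays, so they are not separate evidence. R2 and R1, the 2 monocyte populations, differed in none of the 8 genes by limma, where 0.391% of all genes were called (0.211% higher and 0.181% lower in R2). At an unadjusted limma p under 0.05, 1 of the 8 genes (*Tnfsf13b*) and 10.7% of all genes passed in R2 against R1. The methods' t-test without adjustment passed 2, *Tnfsf13b* and *Tnfrsf1b*, and 7.46% of all genes. The medians of R2 minus R1 were -0.15 for the 8 genes and -0.02 for all.

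**Figure D1:**
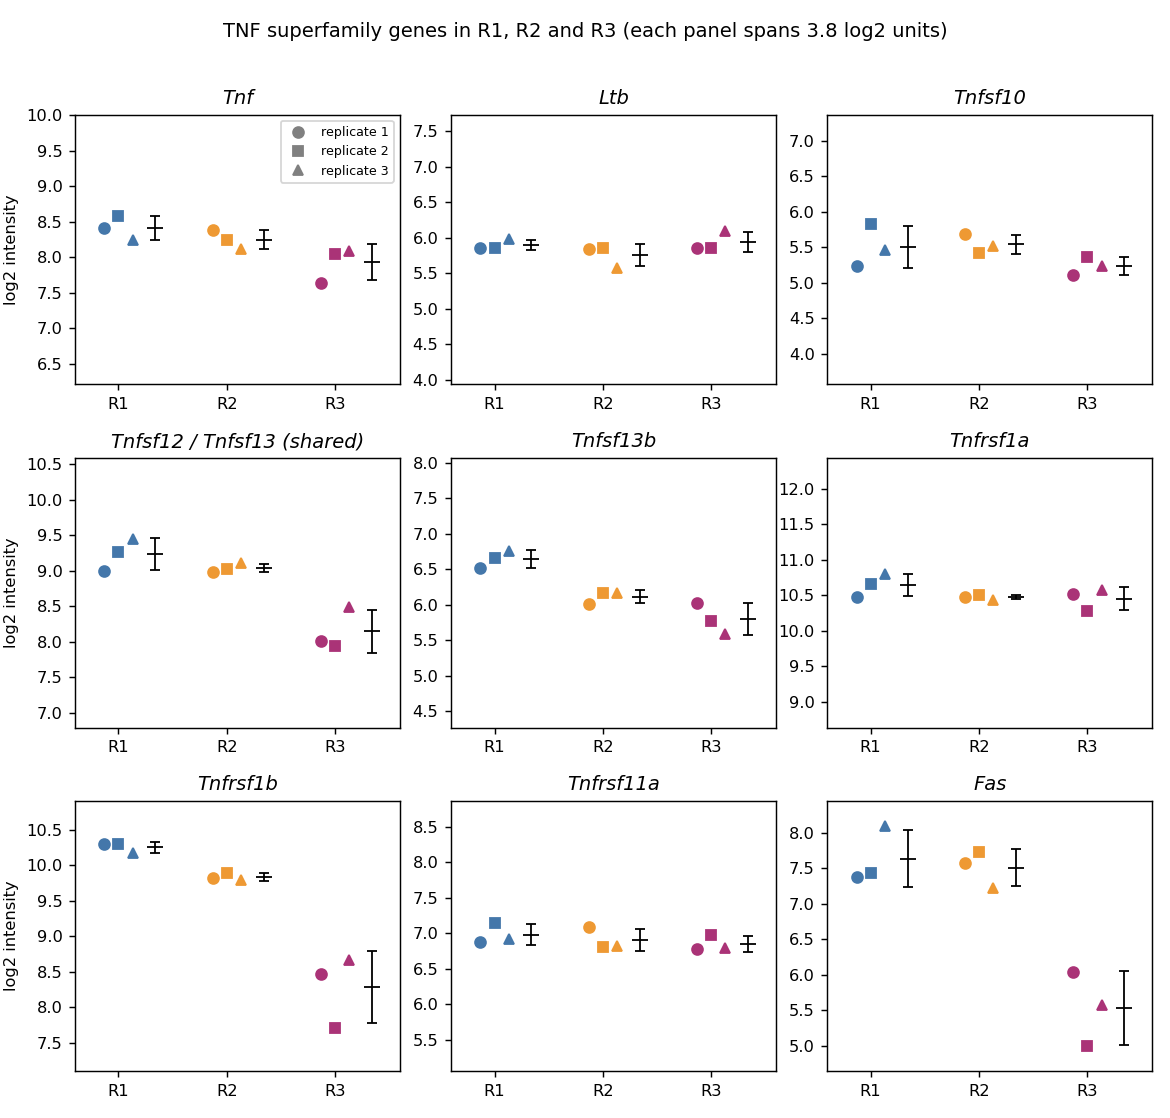
Log2 intensity of each TNF superfamily probe set (vertical axes) in the 3 arrays of R1, R2, and R3 (horizontal axes); each symbol is an array, its shape the replicate number, and the black bars give the mean and SD of the population (n = 3). *Fas* and *Tnfrsf1b* have all 3 R3 arrays below every R1 and R2 array, while the arrays of *Tnfrsf1a* and *Tnfrsf11a* overlap between the populations.

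*Tnf* encodes the founding ligand of the family, a main inflammatory cytokine of monocytes and macrophages. Its log2 intensity was 8.42, 8.59, and 8.25 in the R1 arrays, 8.39, 8.25, and 8.12 in the R2 arrays, and 7.64, 8.06, and 8.10 in the R3 arrays. All R3 arrays lay below all arrays of the other 2 populations, with the highest R3 array close to the lowest R2 array. *Tnf* was 1.40-fold lower in R3 than in R1 (log2 fold change -0.49, SE 0.14, 95% interval -0.80 to -0.17, adjusted p = 0.0486). This call lies just inside the threshold and was kept in 6 of 23 alternative settings. With the date as a replicate block its adjusted p was 0.0686, and leaving out any 1 of 7 arrays (R1 replicate 1 or 2, any R2 array, R3 replicate 1 or 2) took it to between 0.0657 and 0.153. Leaving out the 3 arrays of any 1 date took it to between 0.0746 and 0.275. Against R2 the difference was -0.32 (95% interval -0.64 to -0.01, adjusted p = 0.246), and R2 against R1 gave -0.17 (-0.48 to 0.15, adjusted p = 0.757).

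*Tnfsf13b* encodes BAFF, the B cell survival factor that myeloid cells secrete. It measured 6.51, 6.66, and 6.75 in R1, 6.00, 6.17, and 6.17 in R2, and 6.03, 5.77, and 5.58 in R3. The R1 arrays stood above all others, R2 and R3 overlapped, and 1 of 3 R3 arrays was above the median of its array. *Tnfsf13b* was 1.80-fold lower in R3 than in R1 (log2 fold change -0.85, SE 0.12, adjusted p = 0.00131), a call kept in 21 of 23 settings. It was lost with the methods' t-test after adjustment (adjusted p = 0.0828) and without the 3 arrays of replicate 2 (adjusted p = 0.0661). R2 against R1 gave -0.53 (95% interval -0.80 to -0.26), which did not pass over all genes (adjusted p = 0.119) and passed when arrays were weighted by quality (adjusted p = 0.0384) and by the methods' t-test without adjustment. R3 against R2 gave -0.32 (adjusted p = 0.165), past the threshold only without R3 replicate 1 (adjusted p = 0.0472) or without all arrays of replicate 1 (adjusted p = 0.0488). 
*Tnfsf12* and *Tnfsf13*, neighbors that encode TWEAK and APRIL, are read by 1 probe set that also carries the name of their fusion transcript. The shared probe set measured 8.99, 9.26, and 9.44 in R1, 8.98, 9.02, and 9.10 in R2, and 8.00, 7.93, and 8.49 in R3. Every R3 array was below every other array, and which of the transcripts gave the signal cannot be told from it. In the fit to all 34760 probe sets, where 2.45% were lower in R3 than in R2 and 3.74% lower than in R1, the shared probe set was 1.86-fold lower than in R2 (log2 fold change -0.89, SE 0.17, adjusted p = 0.0229). Against R1 it was 2.13-fold lower (-1.09, adjusted p = 0.007), and R2 against R1 gave -0.20 (adjusted p = 0.777). Both calls were lost with the methods' t-test after adjustment (adjusted p = 0.136 and 0.152). The call against R2 was also lost when the arrays were centred on their medians (adjusted p = 0.0618) and when any of the R2 arrays or R3 replicate 1 or 2 was left out (adjusted p from 0.0755 to 0.0922). Without the arrays of replicate 1 or 2 neither call held, with adjusted p of 0.187 and 0.324 against R2 and of 0.0788 and 0.186 against R1.

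The 2 remaining ligands were not called. *Ltb*, the membrane subunit of the lymphotoxin heterotrimer, measured 5.85, 5.85, and 5.98 in R1, 5.84, 5.85, and 5.57 in R2, and 5.85, 5.85, and 6.09 in R3. The same deposited value recurs in 5 of its 9 arrays, which 7.65% of genes share to at least that extent. It fills all 3 arrays of no population, and the effect of the repeats on the fit was not tested. *Tnfsf10*, which encodes the death ligand TRAIL, measured 5.23, 5.82, and 5.46 in R1, 5.68, 5.42, and 5.51 in R2, and 5.11, 5.37, and 5.23 in R3. The R3 arrays of *Tnfsf10* were all below the R2 arrays and overlapped R1, and the methods' t-test without adjustment passed it against R2, as it did 17.4% of all genes. Intervals of the fold change were -0.05 to 0.41 for *Ltb* and -0.63 to 0.02 for *Tnfsf10* in R3 against R2 (adjusted p = 0.419 and 0.307), and -0.19 to 0.27 and -0.60 to 0.06 in R3 against R1 (0.879 and 0.316). *Tnfsf10* was below the array median in all 9 arrays and *Ltb* in 7, and neither passed a filter that keeps genes above the array median in at least 3 arrays.

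Of the 2 receptors for TNF, 1 was called. *Tnfrsf1b* encodes TNFR2, the receptor of hematopoietic cells that binds membrane TNF best and has no death domain. It measured 10.30, 10.30, and 10.17 in R1, 9.82, 9.89, and 9.79 in R2, and 8.47, 7.70, and 8.67 in R3. The populations did not overlap, with R1 highest and R3 lowest, and the R3 arrays were the most spread (SD 0.51, against 0.08 in R1 and 0.05 in R2, n = 3). *Tnfrsf1b* was 2.93-fold lower in R3 than in R2 (log2 fold change -1.55, SE 0.21, 95% interval -2.02 to -1.09, adjusted p = 0.00117) and 3.93-fold lower than in R1 (-1.97, SE 0.21, adjusted p = 0.000217). R2 against R1 gave -0.42 (95% interval -0.88 to 0.04, adjusted p = 0.53). The SE of 0.21 is shared by all comparisons, so the wider spread of the R3 arrays enters this interval too. The interval alone therefore does not show that R2 and R1 are alike in *Tnfrsf1b*. Among the 23 settings, that difference passed only by the methods' t-test without adjustment. *Tnfrsf1a* encodes TNFR1, the widely expressed death domain receptor. It measured 10.48, 10.66, and 10.80 in R1, 10.48, 10.51, and 10.44 in R2, and 10.52, 10.28, and 10.57 in R3. Its populations overlapped throughout, with intervals of -0.25 to 0.21 for R3 against R2 (adjusted p = 0.961), -0.42 to 0.04 for R3 against R1 (adjusted p = 0.308), and -0.40 to 0.06 for R2 against R1 (adjusted p = 0.635).

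*Fas* encodes the death receptor CD95, which recruits FADD and caspase 8 when bound by FAS ligand. It measured 7.38, 7.43, and 8.10 in R1, 7.58, 7.73, and 7.22 in R2, and 6.04, 5.0, and 5.57 in R3. R1 and R2 overlapped, and all R3 arrays were below both. In R3, 1 of 3 arrays was above the median of its array, so the fold changes rest on dim R3 values. *Fas* was 3.93-fold lower in R3 than in R2 (log2 fold change -1.97, SE 0.28, 95% interval -2.60 to -1.35, adjusted p = 0.0017) and 4.28-fold lower than in R1 (-2.10, SE 0.28, adjusted p = 0.000943), and R2 against R1 gave -0.12 (-0.75 to 0.50, adjusted p = 0.926). The calls of *Fas* and *Tnfrsf1b* were kept in 22 of 23 settings in both comparisons, whichever single array was left out. The exception was the methods' t-test after adjustment, which called none of the 8 genes, and 4.48% and 3.3% of all genes against R2 and R1 (adjusted p of 0.0873 and 0.071 for *Tnfrsf1b* and *Fas* against R2, and 0.063 and 0.0878 against R1). Over the 23 settings, the log2 fold change against R2 ran from -1.77 to -1.24 for *Tnfrsf1b* and from -2.23 to -1.59 for *Fas*. *Tnfrsf11a*, which encodes RANK, measured 6.88, 7.15, and 6.92 in R1, 7.09, 6.81, and 6.82 in R2, and 6.78, 6.98, and 6.79 in R3. The 3 populations overlapped, with an interval of -0.30 to 0.19 for R3 against R2 (adjusted p = 0.873) and of -0.38 to 0.11 for R3 against R1 (adjusted p = 0.533).

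**Figure D2:**
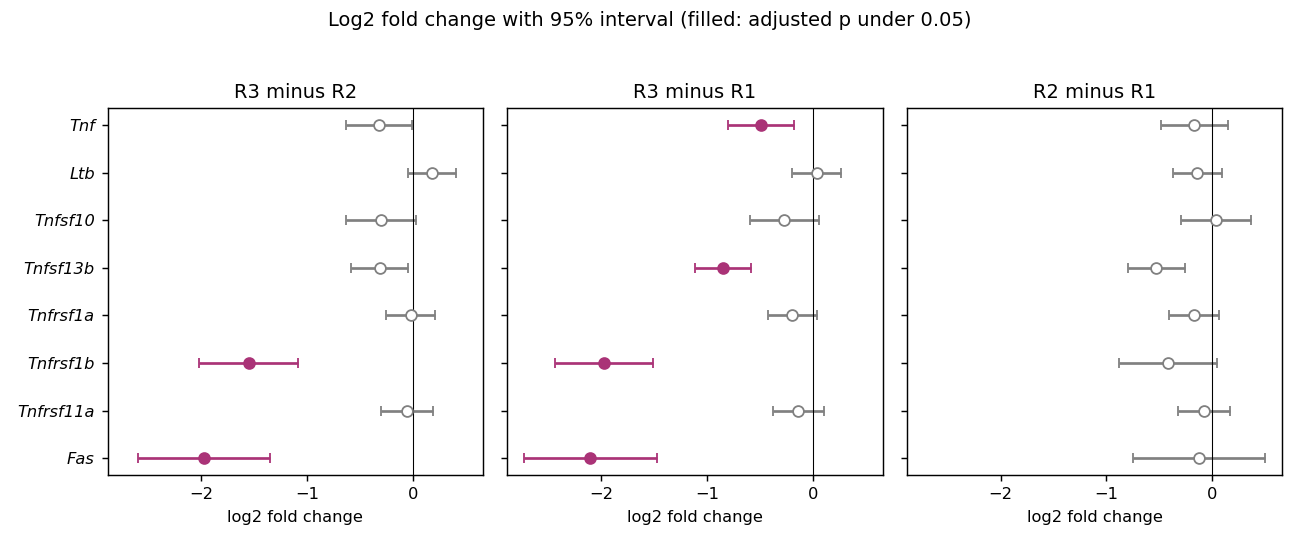
Log2 fold change (horizontal axis) of each of the 8 genes with a probe set of their own in the 3 comparisons (R3 with R2, R3 with R1, R2 with R1), with 95% intervals from limma; filled symbols passed an adjusted p under 0.05. *Fas* and *Tnfrsf1b* lie furthest to the left, at -1.97 and -1.55 against R2 and at -2.10 and -1.97 against R1, and no gene passed in R2 against R1.

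Non-overlap of arrays was also counted. In R3 against R2, 4 of the 8 genes had all R3 arrays below all R2 arrays (*Tnf*, *Tnfsf10*, *Tnfrsf1b*, and *Fas*), as did 12.2% of all genes. In R3 against R1 the count was 4 (*Tnf*, *Tnfsf13b*, *Tnfrsf1b*, and *Fas*), with 12.9% of all genes, and in R2 against R1 it was 2 (*Tnfsf13b* and *Tnfrsf1b*), with 7.99% of all genes. None of the 8 had all R3 arrays above all R2 arrays or all R1 arrays, as 12.6% and 11.6% of all genes had.

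*Fas*, *Tnfrsf1b*, and the shared probe set were lowest in R3 replicate 2, which also had the lowest summed intensity of neutrophil and granule genes among the 9 arrays (675). The other called genes were lowest elsewhere, *Tnf* in R3 replicate 1 (7.64, sum 4579) and *Tnfsf13b* in R3 replicate 3 (5.58, sum 1701). Summed monocyte markers were lower in every R3 array than in any R1 or R2 array, and *Elane*, *Mpo*, and *Ctsg*, genes of the primary granules, were called lower in R3 in both comparisons. The other 5 genes of the neutrophil list were not called, and *Camp*, *Ltf*, and *Ngp*, genes of later granules, had log2 fold changes of 0.86, 1.63, and 2.07 against R2 and of 1.98, 1.74, and 2.89 against R1. The part of these differences in the values of the TNF family genes was not tested. Without R3 replicate 2, *Tnfrsf1b* and *Fas* were still called in both comparisons.

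The genes whose log2 intensity followed each called gene most closely over the 9 arrays are given as a description, since all 9 arrays share the 3 populations. *Tnfrsf1b* was most like *Lst1* (Pearson r = 0.996), *Tlr8* (0.992), and *Zbp1* (0.992). *Fas* was most like *Fbxo22* (r = 0.989), *Dgka* (0.989), and *Txndc5* (0.985). *Tnfsf13b* was most like *Dcaf11* (r = 0.97), *Pno1* (0.969), and *Cmpk1* (0.969), and *Tnf* was most like *Arl11* (r = 0.957), *Babam2* (0.955), and *Sulf2* (0.951).

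The partners of the 10 genes were read from a fixed list. *Fasl*, the ligand of FAS, gave 0.07 in R3 against R2 and -0.12 against R1 on the log2 scale (adjusted p = 0.843 and 0.63). *Lta*, which forms the lymphotoxin heterotrimer with *Ltb*, gave -0.24 and -0.30 (adjusted p = 0.265 and 0.119, and 0.0319 and 0.013 without R3 replicate 3), and *Ltbr*, their receptor, -0.13 and -0.24 (adjusted p = 0.67 and 0.25). Of the receptors for BAFF and APRIL, *Tnfrsf13c*, which encodes the BAFF receptor, was higher in R3, by 1.10 against R2 (2.15-fold, adjusted p = 0.000162) and by 1.17 against R1 (2.25-fold, adjusted p = 8.56e-05). Its R3 arrays read 8.10 to 8.38, its R2 arrays 7.02 to 7.24, and its R1 arrays 6.89 to 7.12. *Tnfrsf13c* is used as a B cell gene in other settings, and the summed B cell markers were 696 to 732 in R3 against 477 to 551 in R2 and 488 to 521 in R1. Among those markers only *Blnk* was called, higher in R3, and *Cd79b*, *Cd79a*, *Ms4a1*, *Pax5*, *Ebf1*, and *Vpreb1* were not called. The part of B cells in the *Tnfrsf13c* value was not tested. *Tnfrsf13b* (TACI) gave -0.09 and -0.06 (adjusted p = 0.588 and 0.707) and *Tnfrsf17* (BCMA) 0.05 and -0.11 (adjusted p = 0.946 and 0.793). *Tnfrsf12a*, the TWEAK receptor, *Tnfrsf10b*, the mouse TRAIL death receptor, and *Tnfsf11* and *Tnfrsf11b*, the ligand and the decoy receptor for RANK signaling, were not called, with log2 fold changes between -0.23 and 0.00 in both comparisons.

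Beyond the 10 genes, 36 further ligands and receptors of the family were measured. In R3 against R2, 5 were higher and 3 lower, and in R3 against R1, 5 were higher and 5 lower. Over all genes, 4.85% were higher and 4.69% lower against R2, and 6.49% higher and 7.02% lower against R1. Of the 36, R2 against R1 gave 0 calls by limma. There 4 passed at an unadjusted p under 0.05, with 10.7% of all genes. The methods' t-test without adjustment passed 2, with 7.46% of all genes. The medians of the 36 were -0.06, -0.05, and -0.01, close to those of all genes. *Tnfsf9*, which encodes the costimulatory ligand 4-1BBL, was the furthest from 0 and higher in R3, 4.90-fold against R2 (log2 fold change 2.29, adjusted p = 6.93e-05) and 7.29-fold against R1 (2.87, adjusted p = 1.25e-05). Its arrays read 5.59 to 6.45 in R1, 6.43 to 6.64 in R2, and 8.69 to 9.01 in R3. *Tnfrsf21*, which encodes the death domain receptor DR6, was lower in R3, 3.08-fold against R2 (-1.62, adjusted p = 7.54e-06) and 3.86-fold against R1 (-1.95, adjusted p = 1.93e-06). Its arrays read 9.85 to 10.14 in R1, 9.61 to 9.69 in R2, and 7.94 to 8.17 in R3. *Tnfsf9*, *Tnfrsf21*, and *Tnfrsf13c* were called in both comparisons in all 23 settings.

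Further receptors and ligands of the family were called. *Ngfr*, the neurotrophin receptor p75, was higher in R3 by 0.76 against R2 (adjusted p = 0.00263) and by 0.79 against R1 (adjusted p = 0.0016). *Cd27* was higher by 0.73 (adjusted p = 0.0417) and 1.33 (adjusted p = 0.00142), and *Tnfrsf18*, which encodes GITR, by 0.71 (adjusted p = 0.0225) and 0.75 (adjusted p = 0.0129). *Tnfsf14*, which encodes LIGHT, was lower in R3, with -0.56 (adjusted p = 0.0422) and -0.82 (adjusted p = 0.00486). *Tnfrsf23* gave -0.26 (adjusted p = 0.0418) and -0.36 (adjusted p = 0.00752). *Tnfrsf26* was called lower against R1 (-1.03, adjusted p = 0.0172, with -0.84 and adjusted p = 0.0586 against R2), as was *Cd40* (-0.39, adjusted p = 0.0384, with -0.16 and adjusted p = 0.494). For the last 2, the difference between the comparisons is R2 against R1, which gave -0.20 for *Tnfrsf26* and -0.23 for *Cd40*. Neither passed there (adjusted p = 0.843 and 0.503). Several of these calls are near the threshold: against R2, that of *Cd27* was kept in 11 of 23 settings, *Tnfrsf18* in 14, *Tnfsf14* in 7, and *Tnfrsf23* in 6 of 22, and against R1 that of *Cd40* in 7 of 23. Leaving out single arrays ended the call of *Cd27* against R2 for any R2 or R3 array or R1 replicate 3 (adjusted p from 0.0548 to 0.15) and that of *Tnfrsf18* for R2 replicate 1 or 3 or R3 replicate 2 or 3 (0.063 to 0.0947). For *Tnfsf14* it was any R2 array, R3 replicate 1 or 2, or R1 replicate 2 or 3 (0.0575 to 0.154), and for *Tnfrsf23* any R2 array, R3 replicate 1 or 3, or R1 replicate 2 or 3 (0.0501 to 0.141). Against R1, *Cd40* was lost without any 1 array but R3 replicate 3 (0.0513 to 0.109), *Tnfrsf26* without R1 replicate 2 or R3 replicate 1 or 3 (0.0514 to 0.0679), and *Tnfrsf18* without R3 replicate 2 (0.0518). *Tnfrsf26* passed against R2 in 9 of 23 settings. These included leaving out R1 replicate 1 or 3 or R3 replicate 2 (0.0113 to 0.0474). The others were array centring, quantile normalization, the date block, array weights, and the dim filter (0.0163 to 0.0477), and the methods' t-test without adjustment.

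A list of 40 genes covered signaling below the receptors and the making and cutting of the ligands. In R3, 3 were called higher and 3 lower relative to R2, and 3 higher and 4 lower relative to R1. Over all genes, 4.85% were higher and 4.69% lower relative to R2, and 6.49% higher and 7.02% lower relative to R1. Of the 40, R2 against R1 gave 0 calls by limma. There 6 passed at an unadjusted p under 0.05, with 10.7% of all genes. The methods' t-test without adjustment passed 5, with 7.46% of all genes. Among 28 signaling genes, 7.14% were called relative to R2 and 10.7% relative to R1, against 9.55% and 13.5% of all genes. None of the 28 was higher in R3, and 2 and 3 were lower. *Mlkl*, the pore-forming protein of necroptosis, was lower in R3, 3.40-fold against R2 (log2 fold change -1.76, adjusted p = 0.000103) and 2.97-fold against R1 (-1.57, adjusted p = 0.000166). Its arrays read 8.58 to 9.08 in R1, 8.88 to 9.06 in R2, and 7.03 to 7.52 in R3. *Tank*, a TRAF-binding regulator of NF-kB, was lower by -0.54 (adjusted p = 0.0255, a call kept in 12 of 23 settings and lost without any 1 R2 array or R3 replicate 1 or 2) and -0.67 (adjusted p = 0.00644). *Birc3*, the ubiquitin ligase cIAP2, was called lower against R1 (-0.47, adjusted p = 0.00609) and gave -0.14 against R2 (adjusted p = 0.458). The difference between these comparisons is R2 against R1, which gave -0.33 for *Birc3* (interval -0.53 to -0.13). It did not pass over all genes (adjusted p = 0.181), though all R2 arrays lay below all R1 arrays. *Birc3* no longer passed against R1 when replicate 1 (adjusted p = 0.0831) or 3 (adjusted p = 0.105) was left out of all populations, or by the methods' t-test after adjustment (adjusted p = 0.118), and it passed against R2 by the methods' t-test without adjustment.

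A further 12 genes act in ligand processing or mRNA control, with 3 higher and 1 lower in R3 in both comparisons. These calls are 33.3% of the 12 in each comparison, against 9.55% of all genes relative to R2 and 13.5% relative to R1. *Rhbdf2* encodes iRhom2, which brings the TNF-cutting protease ADAM17 to the surface of myeloid cells. It read 8.19 to 8.48 in R1, 7.85 to 8.06 in R2, and 6.70 to 6.89 in R3. *Rhbdf2* was 2.25-fold lower in R3 than in R2 (-1.17, adjusted p = 6.25e-05) and 2.92-fold lower than in R1 (-1.55, adjusted p = 8.16e-06), while *Adam17* gave 0.01 and -0.19 (adjusted p = 0.982 and 0.379). *Zfp36l1*, an RNA-binding protein that speeds decay of AU-rich mRNA, read 5.55 to 6.25 in R1, 5.37 to 6.07 in R2, and 7.96 to 8.49 in R3. It was 5.26-fold higher in R3 than in R2 (2.40, adjusted p = 0.000184) and 4.57-fold higher than in R1 (2.19, adjusted p = 0.000253). Its relative *Zfp36*, which encodes tristetraprolin, a destabilizer of *Tnf* mRNA, gave 0.01 and -0.22 (adjusted p = 0.995 and 0.299). *Rc3h1* and *Rc3h2*, which encode the roquins that bind stem loops in mRNAs including that of *Tnf*, were higher by 0.41 and 0.36 against R2 (adjusted p = 0.0153 and 0.0294) and by 0.33 and 0.37 against R1 (adjusted p = 0.0321 and 0.0204). With the date as a replicate block, *Rc3h1* against R1 (adjusted p = 0.0599) and *Rc3h2* against R2 (adjusted p = 0.062) did not pass. Each of the 4 roquin calls was also lost without at least 3 of the single arrays, R3 replicate 1 or 3 among them (adjusted p up to 0.11). *Rhbdf2* and *Zfp36l1* were called in both comparisons in all 23 settings.

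**Figure D3:**
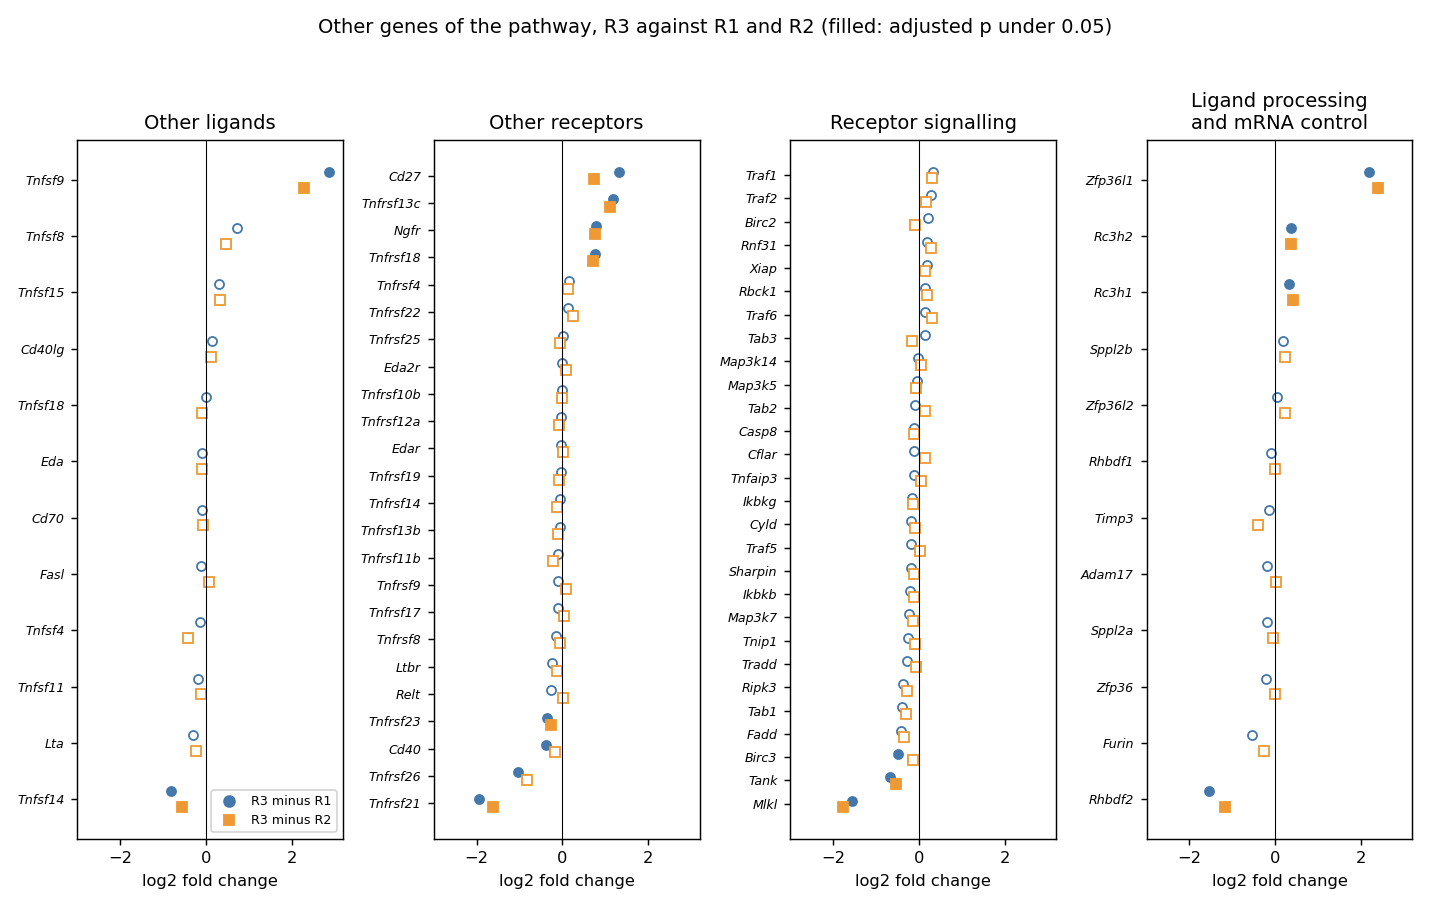
Log2 fold change of R3 against R2 and of R3 against R1 (horizontal axis, squares and circles) for the 36 other ligands and receptors of the family and the 40 signaling and processing genes, filled where the adjusted p from limma was under 0.05. *Tnfsf9* and *Zfp36l1* lie at 2.29 and 2.40 against R2, and *Tnfrsf21*, *Mlkl*, and *Rhbdf2* at -1.62, -1.76, and -1.17.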

How the data were processed

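For each of the 3 populations, 3 Affymetrix Mouse Gene ST arrays (version 1.0) were hybridized with cDNA made from 1 ng of RNA by NuGEN amplification. The authors deposited 1 linear intensity for each of 34760 probe sets and 9 arrays, with array medians from 58.0 to 64.7. Background correction, summarization, and normalization are not given in the sources used here. Every column of values entered the fit.

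The log2 of the deposited intensity was taken with no offset and no dim filter. Of the probe sets, 21640 name 1 gene, 1321 several, and 11799 none in the platform annotation. Each gene was read from the probe set that names it alone with the highest mean, giving 19937 genes. *Ripk1*, *Traf3*, and *Chuk* had no such probe set and were not analysed here. limma (version 3.58.1, R 4.3.3) fitted the 3 populations in 1 model (lmFit, eBayes, 6 residual degrees of freedom). P-values were adjusted by Benjamini-Hochberg over all genes within a comparison, with calls made below 0.05. The number of arrays limits the precision. The fit was tested on simulated data.

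The members and lists were chosen with earlier results of these data known. Genes named beyond the 10 are called genes, no more than the 8 with the largest changes in a list and comparison, and known partners of the 10, and genes of the cell type marker lists. The label date joins 1 array of each population. Deviations from the population means correlated between same-date arrays at r from -0.0244 to 0.152 over 9 pairs. The date was not in the model, as the methods use an unpaired t-test, and was tried as a block. The 23 settings tried were array scaling, weights, variance model, dim filter, probe set choice, block, t-test, and left-out arrays. The fit of the shared probe set among all probe sets was added after the data were seen. Promoters are from RefSeq.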

Additional observations from a re-analysis of the deposited data

How the results depend on the processing

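No result changed direction while called. The methods' t-test after adjustment called 0 of the 8 TNF family genes in both R3 comparisons. It called 3 of the 36 other family genes against R2 and 3 against R1, and 3 and 2 of the 40 signaling and processing genes, against 4.48% and 3.3% of all genes. Without adjustment it called 2, 2, and 5 in R2 against R1, with 7.46% of all genes, where array weights called 1 of the 8, 1 of the 36, and 1.72% of all genes. Of the 36, the fit to the 6 arrays of R3 and R2 called 5 (9.71% of all genes), and the fit to all probe sets 4 (6.83%).

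Paired by date (replicate block), the calls were 2, 3, and 0 of the 8 genes in the comparisons of R3 with R2, R3 with R1, and R2 with R1, 8, 10, and 0 of the 36, and 5, 8, and 0 of the 40, against 9.51%, 13.8%, and 0.115% of all genes. With single arrays or dates left out, calls against R1 ranged from 2 to 4 of the 8, 6 to 10 of the 36, and 4 to 8 of the 40. The share of all genes called against R1 then ranged from 5.6% to 14.3%. Against R2 the calls ranged from 4 to 9 of the 36 and 3 to 6 of the 40, and the share of all genes from 3.8% to 10.9%. The 36 fell to 4 without R2 replicate 1 or 3 and to 5 without R2 replicate 2 or R3 replicate 1. The 40 fell to 3 without R2 replicate 1 or R3 replicate 1 or 2. Without the arrays of replicates 1, 2, and 3 in turn, 5, 4, and 4 of the 36 and 3, 3, and 4 of the 40 were left, with 5.32%, 3.8%, and 5.1% of all genes. Without 1 R2 or R3 array, 6.52% to 8.35% of all genes were called. Against R1, leaving out the 3 arrays of replicate 2 left 2, 6, and 4 calls and 5.6% of all genes. The causes were not tested. Centring arrays on their medians changed the balance of all calls in R2 against R1 from 42 higher and 36 lower to 7 and 13.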
